A study of Mus musculus with 9 samples.

Results

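The genes of the smooth-muscle contractile apparatus described here, 10 of the 25239 gene symbols counted, were followed in mouse E14 embryonic stem cells (ESCs) with and without mutations in *Rbbp4*. They were *Acta2*, *Actg2*, *Tagln*, *Cnn1*, *Cnn2*, *Myl9*, *Tpm1*, *Tpm2*, *Cald1*, and *Vcl*, taken by symbol. The set was chosen because *Acta2* and *Tagln* were among the largest falls in both mutants, so the mutant-to-control values of its members are given as a description, with no p-value. RNA-seq was done on 3 libraries each of control E14 cells (*Rbbp4*+/+), a Rbbp4 Ins/Ins line, and a Rbbp4 Ins/Del line. In the Ins/Ins line both alleles carry an insertion near the target of a CRISPR-Cas9 guide in *Rbbp4*, which encodes a histone-binding subunit of several chromatin complexes. In the Ins/Del line 1 allele carries an insertion and the other a deletion. Each line is 1 clone, so a difference between the lines cannot be told apart from a difference between clones. The lines are called Ins/Ins and Ins/Del from here on. All cells were grown in serum with leukemia inhibitory factor, and the labels give no age, no treatment, and no separate cultures. P-values therefore measure the spread between these libraries, which may be technical.

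Libraries held 15838064 to 21366868 counted reads, and 14125 genes had enough reads to be tested. *Rbbp4* itself had 9932, 9965, and 10117 normalized counts (reads scaled to a common library size) in the controls, 5485, 5551, and 5776 in Ins/Ins, and 10129, 10344, and 10603 in Ins/Del. Its Ins/Ins libraries were below all others, and a count over the whole gene does not show the edited bases. Control library 2 differed more from control libraries 1 and 3 (chi-square per gene 4.87 and 4.10) than these did from each other (2.71), and pairs of mutant libraries gave 1.91 to 2.68. Without it the same 9 members were called lower in each line, and 8 over 2-fold in both. Of the 10 genes, 9 were tested, and *Actg2* was not, with 0 to 9 reads in each library. The name of the set describes the genes and not the cells. The smooth muscle myosin gene *Myh11* averaged 7.09 normalized counts in the controls, and *Myocd*, the smooth muscle and cardiac cofactor, had 0 to 13 reads in each library. Other smooth muscle-defining markers were higher in the controls, with *Smtn* at 783, *Des* at 186, *Itga8* at 79.4, *Synpo2* at 69.9, and *Lmod1* at 27.3.

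Smooth muscle contracts when myosin, with its regulatory light chain phosphorylated, slides along actin filaments that carry tropomyosin, caldesmon, and calponin. Many of the genes are switched on by serum response factor (SRF), which binds a DNA element called the CArG box and works with the actin-sensing cofactors MRTF-A and MRTF-B or, in muscle, with myocardin. Non-muscle cells use several of the same proteins in stress fibres and focal adhesions, and ESCs contain such structures without being muscle.

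The upstream sequences are shown because the CArG box is the element the members are known to share. A CArG box reads CC, then 6 bases that are each A or T, then GG, and matches on both strands are the same because the element is its own reverse complement. The reference table of RefSeq promoters (build GRCm38.p6) held 8 of the 10 genes, without *Tagln* and *Actg2*, and 250 bases upstream of each start were searched. Capitals mark a CArG box, with 1 C or G allowed in the core. *Cnn2* is shown from chr10:79988350-79988583 on the plus strand, *Myl9* from chr2:156775214-156775419 on the plus strand, and *Vcl* from chr14:20929148-20929397 on the plus strand. The *Acta2* boxes, from chr19:34255438-34255467 and chr19:34255388-34255417 on the minus strand, are given with 10 flanking bases on each side, since they lie within an exon of a longer annotated transcript.
Cnn2: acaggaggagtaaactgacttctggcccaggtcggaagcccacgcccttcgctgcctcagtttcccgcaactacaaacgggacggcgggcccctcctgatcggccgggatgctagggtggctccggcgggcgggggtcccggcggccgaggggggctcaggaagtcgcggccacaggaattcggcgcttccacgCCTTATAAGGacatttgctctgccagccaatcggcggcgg
Myl9: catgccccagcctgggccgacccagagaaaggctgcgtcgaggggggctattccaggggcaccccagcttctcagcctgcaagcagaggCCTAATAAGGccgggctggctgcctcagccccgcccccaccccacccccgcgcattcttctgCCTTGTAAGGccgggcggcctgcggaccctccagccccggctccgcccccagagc
Vcl: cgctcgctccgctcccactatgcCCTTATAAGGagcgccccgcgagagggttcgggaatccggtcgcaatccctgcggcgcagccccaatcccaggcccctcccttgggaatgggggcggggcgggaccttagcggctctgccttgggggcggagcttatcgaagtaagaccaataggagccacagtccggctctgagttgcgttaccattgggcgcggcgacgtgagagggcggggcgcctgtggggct
Acta2 distal box: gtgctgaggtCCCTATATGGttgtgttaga
Acta2 proximal box: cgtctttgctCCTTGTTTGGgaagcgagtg

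A perfect CArG box was present in *Cnn2* at -56 to -47 from the start, in *Myl9* at -161 to -152, and in *Vcl* at -227 to -218, which is 3 of 8 members against 1.62% of 27025 genes. With 1 core mismatch allowed, *Acta2* held a box at -84 to -75 and another at -34 to -25, and *Myl9* a further one at -99 to -90, so that 4 of 8 members matched against 9.78% of genes. The MCAT core CATTCC, an element bound by TEAD factors, was found on either strand in *Acta2*, *Tpm1*, *Cald1*, and *Vcl*, 4 of 8 members against 14.4% of genes. The letters TATAAA, on either strand, were held by 14.3% of genes. Among the 8 members only *Cald1* had them, upstream of a different start from its MCAT core. These are matches of letters in 1 window per start and show no binding. A perfect box was held both by *Cnn2*, which was 3.02-fold and 3.45-fold lower in the mutants, and by *Vcl*, the member with the smallest fall.

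**Figure D1:**
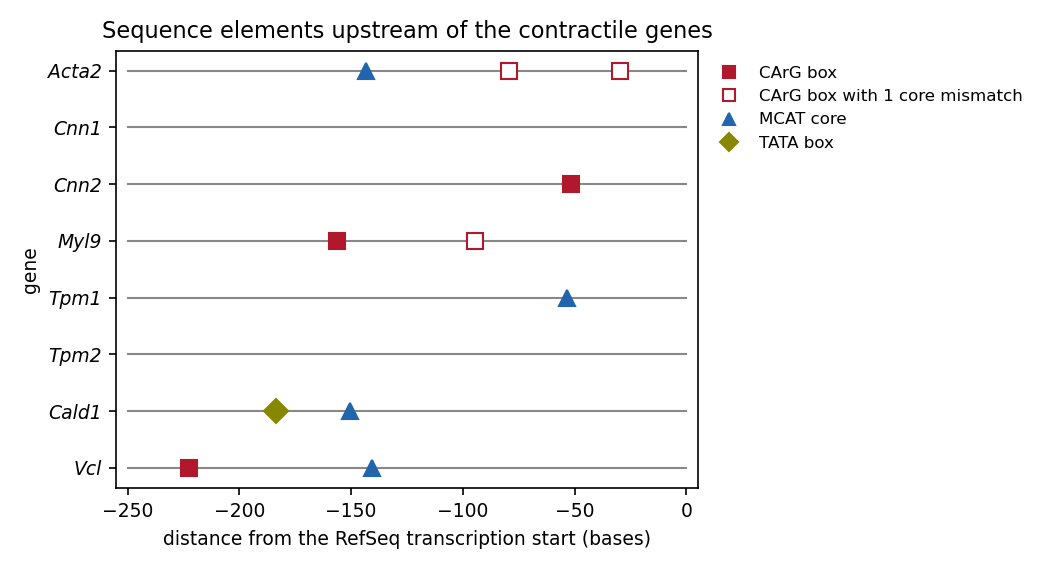
Positions of sequence elements in the 250 bases upstream of the RefSeq starts of 8 contractile genes. The x axis is the distance from the start in bases, with 1 line per gene. *Cald1* has more than 1 start, and its line combines their windows, with the MCAT core in chr6:34598254-34598503 and the TATA box in chr6:34709194-34709443. Filled squares are CArG boxes, open squares boxes with 1 core mismatch, triangles MCAT cores, and the diamond a TATA box. *Acta2*, *Cnn2*, *Myl9*, and *Vcl* hold the squares.

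The strongest falls were in *Acta2* and *Tagln*, the 2 genes that chose the set. *Acta2*, the smooth muscle alpha-actin gene at chr19:34241090-34255590, had 852, 839, and 900 normalized counts in the controls. It had 20.5, 5.64, and 15.9 in Ins/Ins and 16.4, 6.32, and 19.7 in Ins/Del, where it rested on 5 to 24 and 7 to 17 reads. Every mutant library lay far below every control, the mean was 61.6-fold and 61.2-fold lower, and the mutant lines overlapped. *Tagln*, which encodes the actin-binding protein SM22 alpha, lies at chr9:45929619-45936058 and had 2137, 2018, and 1828 normalized counts in the controls. It had 79.5, 71.1, and 66.6 in Ins/Ins and 30.7, 25.3, and 41.7 in Ins/Del, a mean 27.5-fold and 61.3-fold lower. All 3 groups were separate, with Ins/Del lowest. Of the exonic bases of *Tagln*, 62.4% are also covered by *Gm48529* on the opposite strand, which had no row in the count files, and 5.43% by *Pcsk7*, and whether counting used strand was not stated.

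The calponins bind actin and slow myosin. *Cnn1*, the form typical of differentiated smooth muscle (chr9:22099216-22109630), had 254, 198, and 226 normalized counts in the controls, 20.5, 26.0, and 40.2 in Ins/Ins, and 28.6, 30.7, and 27.8 in Ins/Del. Both mutant lines were below the controls and overlapped each other, with means 7.83-fold and 7.79-fold lower. *Cnn2*, the more widely expressed calponin (chr10:79988584-79996062), had 3285, 3221, and 3063 in the controls, 1084, 1077, and 1005 in Ins/Ins, and 963, 899, and 909 in Ins/Del. Its mean was 3.02-fold and 3.45-fold lower, without overlap among the 3 groups.

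The tropomyosins lie along the actin filament, and caldesmon binds both of them. *Tpm1* (chr9:67022590-67049406), the member with the most normalized counts in the controls, had 6721, 6526, and 6433 there. It had 2342, 2290, and 2276 in Ins/Ins and 2119, 1987, and 2105 in Ins/Del. These are falls of 64.9% and 68.4% in the mean, with the groups separate. *Tpm2* (chr4:43514711-43523765) had 763, 744, and 769.8 in the controls, 315, 288, and 319 in Ins/Ins, and 236, 269.8, and 255 in Ins/Del. Its means fell by 59.5% and 66.6%, again without overlap. *Cald1*, the caldesmon gene (chr6:34598500-34775473), had 3778, 3566, and 3618 in the controls, 1085, 1152, and 1079 in Ins/Ins, and 1018, 1067, and 1041 in Ins/Del. Its means fell by 69.7% and 71.5%, with the Ins/Del libraries just below the Ins/Ins libraries.

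*Myl9*, which encodes the regulatory light chain of smooth muscle myosin (chr2:156775420-156781658), had 357, 409.6, and 448 normalized counts in the controls, 119, 108, and 101 in Ins/Ins, and 136, 135, and 125 in Ins/Del. It fell by 72.9% and 67.4% in the mean, and its Ins/Del libraries all lay above its Ins/Ins libraries. *Vcl*, the vinculin gene (chr14:20929398-21033676), links actin to integrin and cadherin adhesions and is expressed in most cells. It had 5283, 5009, and 5230 in the controls, 3645, 3892, and 3833 in Ins/Ins, and 4250, 3907, and 3936 in Ins/Del. *Vcl* fell least, by 26.8% and 22.1%, but its mutant libraries did not reach the controls. *Ap3m1* covers 25.5% of its exonic bases on the opposite strand. *Actg2*, the smooth muscle gamma-actin gene (chr6:83512905-83536265), had 9, 1, and 0 reads in the controls, 2, 1, and 2 in Ins/Ins, and 5, 1, and 1 in Ins/Del, so that no difference was detectable at this depth.

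**Figure D2:**
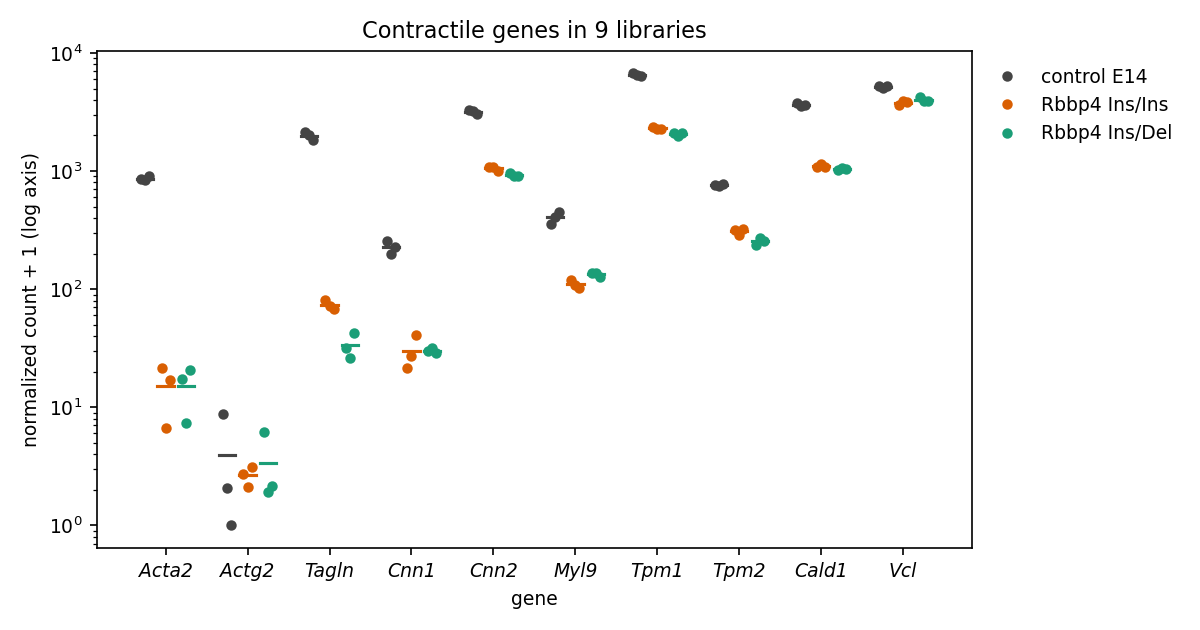
Normalized count plus 1 on a log axis for each of the 10 genes, with 1 point per library and a bar at the mean of the 3 libraries of a group. In 9 genes all mutant points lie below the control points, by the widest gap in *Acta2* and *Tagln*, and the groups overlap in *Actg2*.

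The fitted log2 fold changes (edgeR) ranged from -5.87 (SE 0.145) for *Acta2* to -0.45 (SE 0.034) for *Vcl* in Ins/Ins. In Ins/Del they ranged from -5.98 (SE 0.147) for *Acta2* to -0.36 (SE 0.0339) for *Vcl*. All 9 tested members were called lower in each line at an adjusted p of at most 0.01, where 29.4% of all tested genes were called lower in Ins/Ins and 31.9% in Ins/Del. In 8 of the 9, all but *Vcl*, the call went with a fall of over 2-fold in both lines, against 8.10% of all genes. In all 9, every mutant library was below every control library, against 30.6% of all genes. Nothing is read from these counts, since the set was selected on the same contrasts, and both contrasts share the control libraries. The median log2 fold change of the tested members was -1.73 in Ins/Ins and -1.79 in Ins/Del, and that of all tested genes was 0.00 and -0.01. In bulk RNA, fewer cells with a transcript and less of it per cell cannot be told apart.

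**Figure D3:**
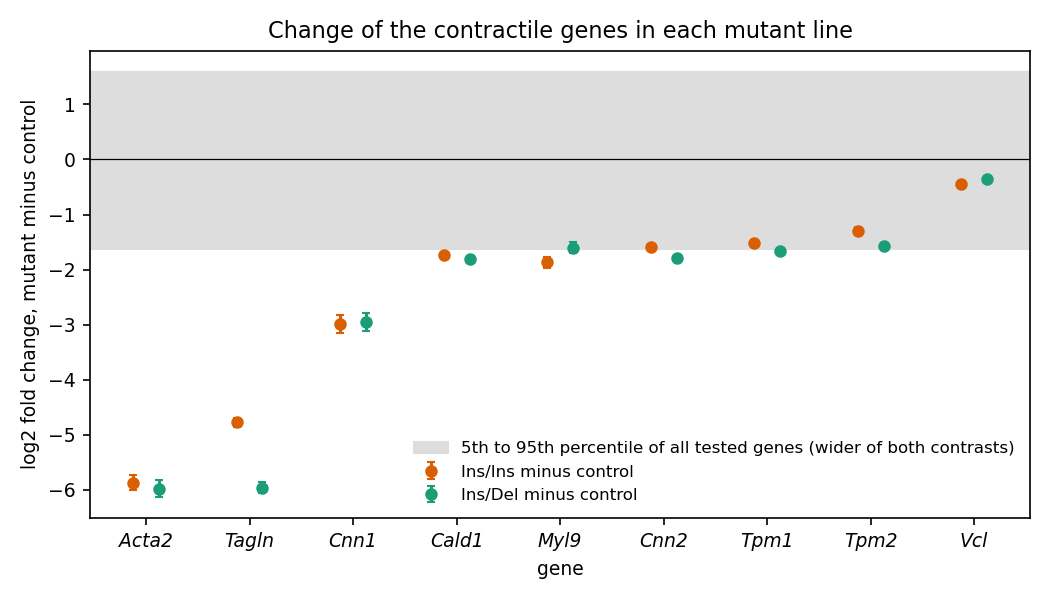
Log2 fold change of each mutant line against the control for the 9 tested genes, with bars of 1 standard error and a grey band from the 5th to the 95th percentile of all tested genes, the wider of both contrasts. *Acta2*, *Tagln*, and *Cnn1* lie far below the band in both lines. *Vcl* and *Tpm2* lie within it in both lines, *Tpm1* and *Cnn2* in Ins/Ins, and *Myl9* in Ins/Del.

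The falls changed the order of the levels. Per exon length, in reads per kilobase and 1000000 reads, the controls had *Cnn2* highest at 71.1 ± 2.55 (SD, n = 3), then *Tpm1* at 55.5 ± 1.24 and *Tagln* at 55.0 ± 4.31, which did not differ beyond their spread. *Vcl* followed at 34.6 ± 0.971, *Acta2* at 21.6 ± 0.8, *Myl9* at 19.1 ± 2.17, *Cald1* at 16.6 ± 0.503, and *Tpm2* at 14.3 ± 0.256, and the libraries of *Myl9*, from 16.8 to 21.2, overlapped those of its neighbours *Acta2* and *Cald1*. *Cnn1* was at 4.53 ± 0.56 and *Actg2* at 0.103 ± 0.147. In Ins/Ins the order began with *Vcl* at 25.4 ± 0.865, *Cnn2* at 23.5 ± 0.966, and *Tpm1* at 19.5 ± 0.294, and *Tagln* stood at 2.0 ± 0.181 and *Acta2* at 0.35 ± 0.19. In Ins/Del *Vcl* was at 27.0 ± 1.27, *Cnn2* at 20.6 ± 0.768, *Tpm1* at 17.5 ± 0.614, *Tagln* at 0.897 ± 0.23, and *Acta2* at 0.352 ± 0.174. Summed over the 10 genes, the set took 1242 to 1283 reads per 1000000 in the controls, 475 to 487 in Ins/Ins, and 455 to 480 in Ins/Del.

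The mutant lines were then compared with each other, a comparison that the choice of the set did not use. *Tagln* differed most and was lower in Ins/Del by a log2 difference of -1.19 (SE 0.186, 95% interval -1.57 to -0.81, edgeR adjusted p = 8.31e-06), with 3 of 3 Ins/Del libraries below every Ins/Ins library. The same direction was called for *Cnn2* (log2 difference -0.19, SE 0.0472, edgeR adjusted p = 0.00277), *Tpm1* (-0.16, SE 0.0356, adjusted p = 0.00148), and *Tpm2* (-0.28, SE 0.0782, adjusted p = 0.00979). These 4 of 9 members compare with 10.8% of all tested genes called in either direction, 4.64% lower and 6.17% higher. The *Tagln* call held in all 15 alternative fits. The *Tpm2* call was lost in 12 of 15 (log2 difference -0.33 to -0.23, adjusted p 0.0077 to 0.0676), among them the fits with DESeq2 and without any 1 of 8 of the libraries. The *Tpm1* call was lost without Ins/Ins library 1 or Ins/Del library 2 (adjusted p up to 0.0316), and the *Cnn2* call without Ins/Ins library 1 or 2 or Ins/Del library 2 or 3 (adjusted p up to 0.0285).

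The other 5 tested members were not called between the lines. For *Acta2* the log2 difference was -0.11 (95% interval -0.83 to 0.62, edgeR adjusted p = 0.878), and for *Cnn1* it was 0.04 (-0.46 to 0.54, adjusted p = 0.941). These were the widest intervals among the members, and both genes had few reads in the mutants. *Myl9* differed by 0.27 (0.02 to 0.51, edgeR adjusted p = 0.128), *Cald1* by -0.08 (-0.17 to 0.01, adjusted p = 0.206), and *Vcl* by 0.09 (0.02 to 0.16, adjusted p = 0.0632). The libraries of the 2 lines did not overlap in 7 of the 9 tested members, against 34.1% of all tested genes, and overlapped in *Acta2* and *Cnn1*.

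**Figure D4:**
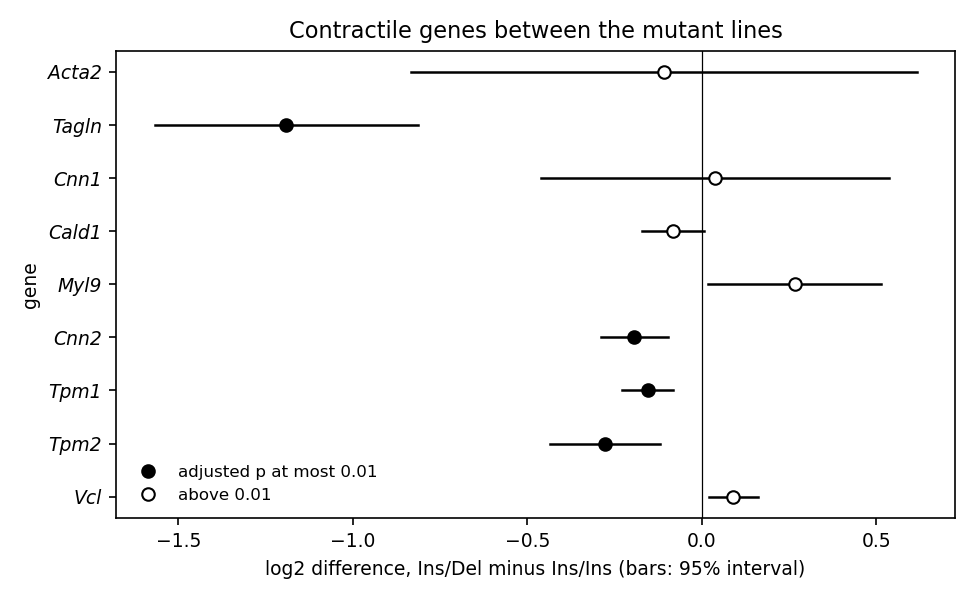
Log2 difference between Ins/Del and Ins/Ins for the 9 tested genes, with bars showing the 95% interval and filled points an adjusted p of at most 0.01. *Tagln* lies at -1.19, clear of the other members, and the widest intervals are those of *Acta2* and *Cnn1*.

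The other actins separated by type. *Acta1*, the skeletal alpha-actin gene, had 274, 292, and 262 normalized counts in the controls, 12.8, 11.3, and 11.6 in Ins/Ins, and 7.2, 5.4, and 11.6 in Ins/Del. It fell in both lines (log2 fold change -4.51, edgeR adjusted p = 4.02e-24, and -5.12, adjusted p = 9.53e-25). *Actc1*, the cardiac alpha-actin gene, had 60, 54, and 51 reads in the controls, 0, 0, and 1 in Ins/Ins, and 1, 0, and 2 in Ins/Del. It passed the filter on low counts through the controls alone, where it is high, so it is given without a p-value or a fold. *Actb*, the cytoplasmic beta-actin gene, changed by -0.11 in Ins/Ins (adjusted p = 0.000691), and its log2 fold change in Ins/Del was 0.01 (adjusted p = 0.835). *Actg1*, the cytoplasmic gamma-actin gene, fell by 0.44 and 0.37 on the log2 scale. Of the summed per-length level of the 6 actins, the 4 muscle actins made up 2.32% to 2.51% in the controls, 0.0471% to 0.0844% in Ins/Ins, and 0.0297% to 0.0795% in Ins/Del.

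Close relatives of the members had a median log2 fold change nearer to 0 than the members. *Tpm4* and *Tagln3* fell more than the member *Vcl* in both lines. Of 9 such family members, 6 were called lower and 1 higher in Ins/Ins (median log2 fold change -0.24), and 6 lower and 2 higher in Ins/Del (-0.30). Of all tested genes, 29.4% and 31.9% were called lower and 29.0% and 30.6% higher. *Tpm4*, a cytoskeletal tropomyosin, fell by 0.96 and 1.01 on the log2 scale, whereas *Tpm3* had a log2 fold change of 0.01 (adjusted p = 0.845) in Ins/Ins and rose by 0.14 in Ins/Del. *Tagln2*, the transgelin of most non-muscle cells, rose by 0.34 and 0.44 (edgeR adjusted p = 1.02e-09 and 1e-12), and *Tagln3*, the neuronal form, changed by -0.69 and -0.75. *Cnn3*, the acidic calponin, changed by -0.32 and -0.31. Among the light chains, *Myl12a* changed by -0.42 and -0.38, *Myl12b* by -0.24 and -0.23, and *Myl6* by -0.20 and -0.25, and *Myl6b* did not pass the test (-0.18, adjusted p = 0.436, and -0.30, adjusted p = 0.186).

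Other genes known from smooth muscle were mixed. Of 17 tested, 9 were lower and 1 higher in Ins/Ins, and 11 were lower and 2 higher in Ins/Del, with median log2 fold changes of -0.53 and -0.56. Of all tested genes, 29.4% and 31.9% were called lower and 29.0% and 30.6% higher. *Des*, the intermediate filament protein desmin, had 198, 183, and 175 normalized counts in the controls, 59.0, 59.8, and 62.4 in Ins/Ins, and 40.9, 49.6, and 45.1 in Ins/Del, all below the controls. *Filip1l* changed by -2.62 and -2.60 on the log2 scale, *Pdlim3*, a Z-disc LIM protein, by -2.25 and -2.38, and *Csrp1*, a LIM protein of the actin cytoskeleton, by -1.09 and -1.25. *Mylk*, the myosin light chain kinase that starts contraction, went the other way, from 6.8, 9.4, and 5.4 in the controls to 24.8, 16.9, and 28.5 in Ins/Ins and 29.6, 35.2, and 47.4 in Ins/Del. Its fitted log2 fold changes were 1.69 and 2.34, called over 2-fold higher in both lines as were 6.58% of all genes. They rest on 5 to 9 reads in each control library, and the gene passed the filter on low counts through the mutants, where it is high.

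Transcripts of SRF and its MRTF cofactors moved by small amounts. *Srf* had 1565, 1499, and 1521 normalized counts in the controls, 1312, 1304, and 1128 in Ins/Ins, and 1277, 1173, and 1189 in Ins/Del. Its mutant libraries were below the controls, with log2 fold changes of -0.29 (SE 0.0479, edgeR adjusted p = 1.52e-06) and -0.33 (SE 0.0482, adjusted p = 1.03e-07). *Mrtfa*, which encodes MRTF-A, had log2 fold changes of 0.04 (adjusted p = 0.545) and 0.01 (adjusted p = 0.91), and *Mrtfb* rose by 0.16 and 0.19, a call that was lost in Ins/Ins without control library 2 (0.14, adjusted p = 0.0154). *Fhl2*, an SRF-binding LIM protein, changed by -1.83 and -1.40. Of 11 tested regulators, 5 were lower and 3 higher in Ins/Ins, and 5 lower and 5 higher in Ins/Del, beside 29.4% lower and 29.0% higher, and 31.9% lower and 30.6% higher, of all genes. Without control library 2, 1 was higher in Ins/Ins and 4 in Ins/Del. These are transcript levels, and the place of the MRTF proteins in the cell was not measured.

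Of 20 tested SRF-MRTF target genes outside the set, 17 were lower and 2 higher in Ins/Ins, and 17 lower and 3 higher in Ins/Del, with medians of -0.78 and -0.84. Over all tested genes 29.4% and 31.9% were called lower and 29.0% and 30.6% higher. *Thbs1*, a matrix glycoprotein, had 2599.8, 2288, and 2407 normalized counts in the controls, 180, 195, and 146 in Ins/Ins, and 194, 208, and 170.1 in Ins/Del. Its log2 fold changes were -3.81 and -3.66. *Anxa1*, a phospholipid-binding protein, changed by -3.41 and -3.19, *Ccn1*, a matricellular protein, by -2.23 and -2.43, and *Zyx*, the adhesion protein zyxin, by -1.86 and -2.15. *S100a6* changed by -1.69 and -1.76, and *Tgm2*, a transglutaminase, by -1.36 and -1.61. Of 8 tested targets of SRF with its ternary complex partners, the early response genes, 2 were lower and 1 higher in each line, with medians of 0.05 and -0.01, beside 29.4% and 31.9% lower and 29.0% and 30.6% higher among all genes. Without control library 2, 2 were higher in Ins/Ins. The lists were chosen with earlier results of these data known, and the difference between them was not tested.

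Contractile filaments are anchored at adhesions. Of 25 focal adhesion partners of vinculin, 18 were lower and 5 higher in Ins/Ins, and 18 lower and 6 higher in Ins/Del (medians -0.54 and -0.51), beside 29.4% and 31.9% lower and 29.0% and 30.6% higher among all genes. *Itgb1*, the beta-1 integrin gene, changed by -1.14 and -1.08, *Bcar1*, a scaffold of integrin signalling, by -1.07 and -1.16, and *Fermt1*, a kindlin, by -1.63 and -2.01. *Parva*, the alpha-parvin gene, changed by -1.53 and -2.18, and was lower in Ins/Del than in Ins/Ins by the direct test (log2 difference -0.64, SE 0.102, edgeR adjusted p = 1.04e-05). *Sorbs3*, the vinculin-binding protein vinexin, changed by -2.57 and -2.76. It lies on chromosome 14 at 70180468, where the median log2 fold change of 60 genes between 70 and 80 Mb was -0.90 and -0.88. Median changes in the 10 Mb bins from 40 to 90 Mb ran from -1.72 to -0.79 in Ins/Ins and from -1.79 to -0.83 in Ins/Del. *Fermt2*, another kindlin gene and one of the 18 lower partners, lies there too, with -0.91 and -0.86 against -0.86 and -0.86 in its bin. *Vcl*, on the same chromosome, had 51 neighbours within 5 Mb with medians of -0.03 and -0.12.

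Of 17 genes of the TGF-beta pathway, a signal that raises contractile genes in many cells, 8 were lower and 2 higher in Ins/Ins, and 10 lower and 2 higher in Ins/Del (medians -0.23 and -0.25), beside 29.4% and 31.9% lower and 29.0% and 30.6% higher among all genes. *Tgfb2*, a ligand, had 209, 160.3, and 174 normalized counts in the controls, 6.8, 9.0, and 2.1 in Ins/Ins, and 11.2, 6.3, and 13.9 in Ins/Del, with no overlap with the controls. *Tgfb2* rests on 2 to 8 reads in Ins/Ins and 7 to 12 in Ins/Del. It is counted among the lower genes, but passed the filter on low counts through the controls, where it is high. The latent TGF-beta binding proteins *Ltbp1* (-1.59 and -1.41) and *Ltbp3* (-1.04 and -1.26) were called lower in both lines. The genes called higher in both, named after their values were seen, were *Tgfb1*, a ligand (0.55 and 0.74), and *Eng*, a co-receptor (0.93 and 0.83).

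**Figure D5:**
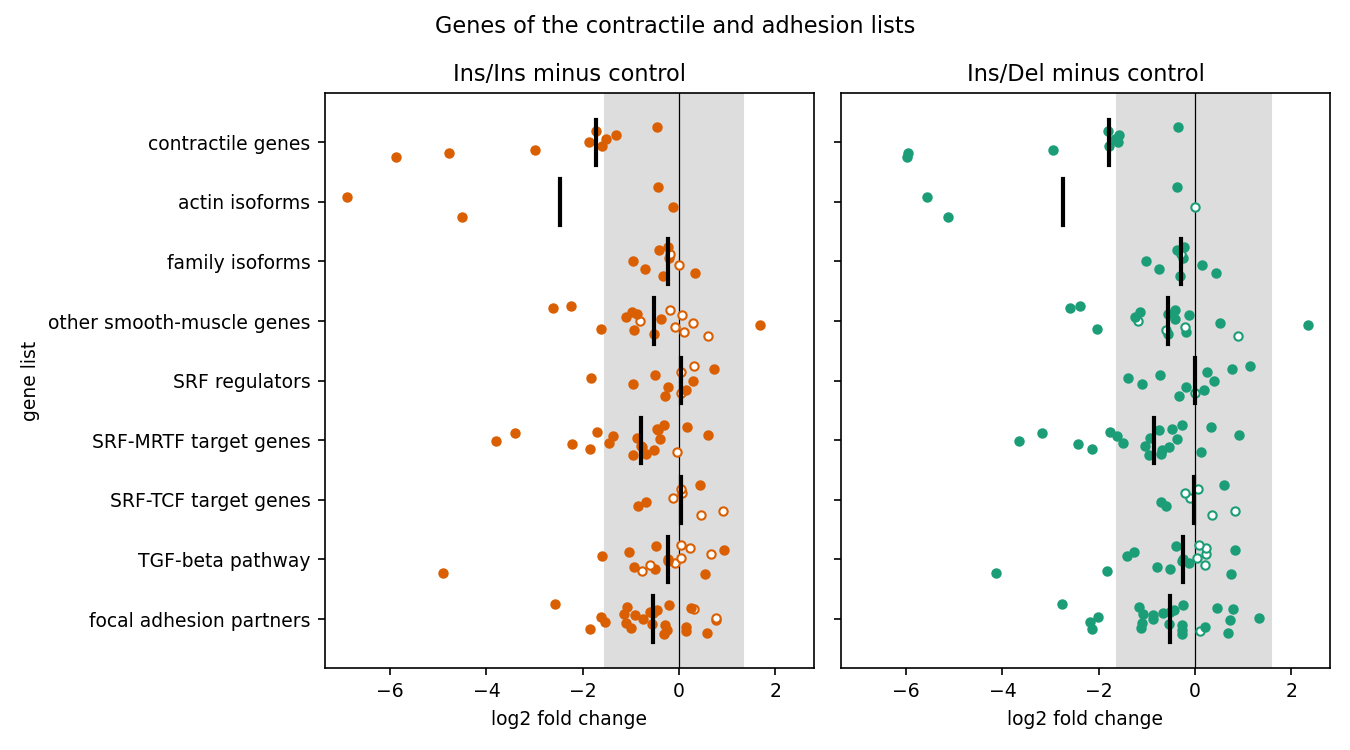
Log2 fold change of each tested gene by gene list, for Ins/Ins on the left and Ins/Del on the right, with filled points called at an adjusted p of at most 0.01, black bars at list medians, and a grey band from the 5th to the 95th percentile of all tested genes. Most points of the contractile and SRF-MRTF lists lie left of 0, while SRF-TCF targets and SRF regulators lie around it, and the leftmost actin, *Actc1*, rests on 0 to 2 reads in the mutants.

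Markers of cell types are given as summed normalized counts per library. The 8 ESC markers summed to 94980 to 98983 in the controls, 120441 to 122971 in Ins/Ins, and 119978 to 123230 in Ins/Del. The 7 smooth muscle-defining markers summed to 1138 to 1176, 709 to 778, and 704 to 733. *Smtn* alone averaged 783, 541, and 530 of these. Of the 6 tested, 4 were called lower in Ins/Ins and 3 in Ins/Del, with 0 higher, beside 29.4% and 31.9% of all tested genes lower. The 15 fibroblast and feeder cell markers summed to 1061 to 1143 in the controls, 773 to 861 in Ins/Ins, and 1003 to 1007 in Ins/Del. Of the 8 tested, 5 were called over 2-fold lower in both lines, which are *Col1a1*, *Col1a2*, *Col3a1*, *Pdgfrb*, and *Twist1*, named after their values were seen, beside 8.10% of all genes. Others went the other way, with *Thy1* (2.43 and 2.77) and *Fbn1* (0.66 and 0.96) called higher in both lines and *Pdgfra* in Ins/Del (0.89), a call lost without control library 2 (0.69, adjusted p = 0.0179). *Lum*, *S100a4*, and *Tcf21* had at most 3 reads in every library. *Col1a2* and *Col3a1*, 2 of the 5 lower, passed the filter on low counts through the controls, where they are high. They had 6 to 12 and 0 to 2 reads in each mutant library. Skeletal muscle markers, which include *Acta1*, summed to 719 to 769.9, 298 to 333, and 319 to 386, and cardiac markers to 248 to 249, 244 to 274, and 279 to 314. Endothelial markers summed to 372 to 420.1, 851 to 869.9, and 944 to 997. Extraembryonic endoderm markers summed to 1693 to 1827, 1664 to 1783, and 2291 to 2312, mesoderm markers to 278 to 294, 349.9 to 389, and 297 to 322, and trophoblast markers to 1476 to 1520.05, 1836 to 1938, and 1135 to 1222. A sum can rest on 1 gene. *Tfap2c* averaged 1260 normalized counts in the controls and 1763 in Ins/Ins, where 3 of 4 tested trophoblast markers were called lower. *Eomes* averaged 193 and 322 in the mesoderm list, where 1 of 5 tested was called lower and 1 higher. Of 4 tested endothelial markers, 1 was lower and 1 higher in Ins/Ins, and 1 lower and 2 higher in Ins/Del. Among them *Tek* averaged 321 in the controls, 793 in Ins/Ins, and 852 in Ins/Del. Of 6 tested extraembryonic endoderm markers, 2 were lower and 4 higher in Ins/Del, or 1 and 3 without control library 2. Of all tested genes, 29.4% and 31.9% were called lower and 29.0% and 30.6% higher. The trophoblast marker *Cdx2*, the mesoderm marker *T*, and the endothelial marker *Tie1* were called lower in both lines. They passed the filter on low counts through the controls, where they are high, with 1 to 4, 0 to 3, and 3 to 14 reads in the mutants. No marker was at 0 in all libraries, and the part of these markers in the falls of the contractile genes was not tested.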

How the data were processed

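RNA-seq was measured in 9 libraries, 3 per group, made with an mRNA kit from total RNA. The deposited files hold raw counts per gene symbol, which the authors made by aligning to mm10 with STAR 2.7.3 and counting with HTSeq. The HTSeq version, annotation, and strand setting are not given in the sources used here. The authors used DESeq2 1.22.2. Here the counts were tested with edgeR 4.0.16 (TMM, filterByExpr, quasi-likelihood test) in R 4.3.3, with all 9 libraries in 1 fit and Benjamini-Hochberg adjustment over 14125 genes. A gene was called at an adjusted p of at most 0.01. The fit was tested on simulated data.

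Normalized counts are counts divided by TMM-scaled library size, times the mean size. Levels per length use merged exons of GENCODE M21. Alternatives were DESeq2 1.42.0, its size factors, scaling by totals, all genes with at least 1 read, only the groups compared, the replicate block, each library left out, and an adjusted p limit of 0.05.

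The members and lists were chosen with earlier results of these data known. Named were all members, actins, and family isoforms, SRF, its MRTF cofactors and *Myocd*, and from other lists at most 6 genes called over 2-fold in both lines with a mean count above 20. 1 further gene list is not reported here. No gene of those lists was called over 2-fold between the lines. *Myh11*, other single markers, *Tgfb1*, *Eng*, *Fermt2*, and the chromosome 14 neighbours were named after their values were seen. Pairs of libraries of 1 group differed by more than sampling noise (chi-square per gene 1.91 to 4.87). No other cause of a difference was tested.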

Additional observations from a re-analysis of the deposited data

Results flagged for a closer look

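The effects of the 2 mutant lines against the same controls differed, by the edgeR test of the difference between the lines, for 12 of the genes named above. *Rbbp4* itself was not among the genes checked for this. It had 5485 to 5776 normalized counts in Rbbp4 Ins/Ins and 10129 to 10603 in Rbbp4 Ins/Del. Among the 12, the log2 difference, Rbbp4 Ins/Del minus Rbbp4 Ins/Ins, was -1.19 for *Tagln*, -0.64 for *Parva*, -0.29 for *Zyx* (edgeR adjusted p = 0.00614), -0.28 for *Tpm2*, -0.19 for *Cnn2*, -0.16 for *Tpm1*, and -0.70 for the trophoblast marker *Tfap2c* (adjusted p = 5.06e-15). It was 0.12 for *Actb* (adjusted p = 0.00223), 0.14 for *Tpm3* (0.00116), 0.34 for *Thy1* (0.00345), 0.29 for *Fbn1* (0.00352), and 0.94 for *Pdgfra* (0.00619), which were higher in Rbbp4 Ins/Del. Of the 128 tested genes of lists other than the members and the markers, 8 were called lower and 8 higher between the lines. Of all tested genes, 4.64% were called lower and 6.17% higher. Each line is 1 clone, so line and genotype cannot be told apart.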

How the results depend on the processing

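All 270 alternative values of the members against the control (9 members, 2 lines, and 15 fits each) kept their direction and their call, which supports nothing further, since the set was chosen on these contrasts. Between the lines, 117 of 135 alternative values kept theirs, and the rest lost the call of *Tpm2*, *Cnn2*, or *Tpm1*. The 4 members called between the lines became 1 to 3 when 1 library was left out, with 1 left without Ins/Ins library 1 or Ins/Del library 2 and 2 without Ins/Del library 3. Leaving out control library 2, chosen after seeing the data, kept 8 members over 2-fold lower in both lines. The replicate block gave 3 members, losing *Tpm2*. Library numbers did not pair the libraries, since deviations of same-numbered libraries correlated by only -0.028 to 0.056 over 9 pairs. Of 128 tested genes of the other lists, the unreported list included, 78 were lower and 21 higher in Rbbp4 Ins/Ins, and 80 lower and 26 higher in Rbbp4 Ins/Del, each count within 1.5 times under every alternative. Of all tested genes, 29.4% and 31.9% were called lower and 29.0% and 30.6% higher. Between the lines 8 of the 128 were lower and 8 higher, beside 4.64% and 6.17% of all tested genes. At an adjusted p limit of 0.05 the 8 lower and 8 higher became 13 and 13, and leaving out 1 library gave 6 to 9 lower and 5 to 9 higher, with 5 without Ins/Del library 1. The share of genes with a CArG box, 1.62%, was 9.78% with 1 core mismatch, and the MCAT core, a different element, was held by 14.4%. With few reads, *Acta2*, *Cnn1*, and *Actg2* could not show small differences between the lines, and 3 libraries against 3 allow no exact permutation p below 0.1.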
